A study of Mus musculus with 4 samples.

Results

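The genes described here are 10 components of the circadian clock, Arntl (also called Bmal1), Clock, Npas2, Per1, Per2, Per3, Cry1, Nr1d1, Nr1d2 and Dbp, out of 25796 genes in the table. The set is a list of names, drawn up with earlier results of these data known. Each gene is represented by its most abundant transcript over the 4 libraries. All 10 were listed and all 10 passed the filter on low values. RNA came from mouse colon epithelial cells released with EDTA, and the libraries are the unenriched inputs of an experiment that immunoprecipitates RNA carrying N6-methyladenosine (m6A). Of the 4 libraries, 2 carry the label WT (wild type) and 2 the label Ythdf1 KO, a knockout of the gene for a cytoplasmic m6A reader. WT 1, WT 2, KO 1 and KO 2 below are these libraries as labelled. The sources used here do not give the strain, age or sex of the mice, the altered part of Ythdf1, the light schedule or the hour of collection. They also leave unstated whether both libraries of a label are from different animals. A p-value therefore reflects only how far these samples spread, and that spread may be technical.

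The clock is a loop of transcription factors that runs in nearly every cell, the epithelium of the gut included. The proteins of Arntl and of Clock or Npas2 pair and bind E-box sequences, where they activate the Per and Cry genes, Nr1d1, Nr1d2 and Dbp. PER and CRY proteins then repress that pair, and the products of Nr1d1 and Nr1d2, the REV-ERB nuclear receptors, repress Arntl and other genes through sites that ROR receptors also bind. As a result, the RNAs of Arntl and Npas2 and those of Nr1d1, Dbp and the Per genes peak at opposite times of day, with Cry1 delayed against the other E-box genes. Dbp encodes an activator that binds D-box sequences, which the Per genes also carry.

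Letter matches to these binding sequences can be read in the promoters of some members. RefSeq promoter windows, from 250 bases before to 50 after a transcription start site on GRCm38.p6, were found for 9 of the 10 members (all but Per2) and 13 start sites. The E-box CACGTG, the D-box TTANGTAA, the nuclear receptor half-site AGGTCA and the cyclic AMP response element TGACGTCA were searched on both strands. The first 3 were found in 7.15%, 2.32% and 16.3% of all 32851 windows and the last in 1.79%, and no match overlapped another in the windows of the members. A match is a description of the letters and was not tested for binding. AGGTCA is the core of REV-ERB and ROR sites but not particular to them, and it was searched without the bases beside it. The 4 sequences below are shown because together they hold letter matches to the first 3 of these motifs. They run 5′ to 3′ on the strand of the gene, with the matches in capitals. The Per1 stretch (chr11:69098699-69098948, plus strand) holds an E-box and, on the opposite strand, an AGGTCA core. The Cry1 stretch (chr10:85185055-85185304, minus strand) holds an E-box, the Per3 stretch (chr4:151044666-151044915, minus strand) 2 D-boxes, and the Nr1d2 stretch (chr14:18239107-18239356, minus strand) an AGGTCA core.
Per1: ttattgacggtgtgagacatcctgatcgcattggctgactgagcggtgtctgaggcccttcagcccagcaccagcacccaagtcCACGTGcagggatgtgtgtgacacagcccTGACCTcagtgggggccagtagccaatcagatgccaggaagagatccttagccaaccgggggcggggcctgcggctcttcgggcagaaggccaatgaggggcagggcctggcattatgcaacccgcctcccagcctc
Cry1: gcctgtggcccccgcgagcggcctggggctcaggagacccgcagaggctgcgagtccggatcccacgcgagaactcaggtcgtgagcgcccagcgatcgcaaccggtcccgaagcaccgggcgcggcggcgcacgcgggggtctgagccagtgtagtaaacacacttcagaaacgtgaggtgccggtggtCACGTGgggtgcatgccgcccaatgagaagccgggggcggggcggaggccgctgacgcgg
Per3: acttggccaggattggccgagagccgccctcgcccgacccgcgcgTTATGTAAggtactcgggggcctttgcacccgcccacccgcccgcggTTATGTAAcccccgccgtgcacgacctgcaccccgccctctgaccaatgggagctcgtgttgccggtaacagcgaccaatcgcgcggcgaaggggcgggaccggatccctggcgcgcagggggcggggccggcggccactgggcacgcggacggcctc
Nr1d2: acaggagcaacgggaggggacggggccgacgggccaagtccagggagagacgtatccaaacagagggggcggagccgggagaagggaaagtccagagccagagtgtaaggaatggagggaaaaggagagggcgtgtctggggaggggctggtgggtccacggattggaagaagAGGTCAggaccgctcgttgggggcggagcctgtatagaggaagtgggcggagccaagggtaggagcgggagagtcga

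The Per1 E-box begins 166 bases before the start site and the Cry1 E-box 60 bases before it. The Per3 D-boxes begin 205 and 158 bases before the start site. One of the Arntl windows holds AGGTCA 31 bases after its start site, and 1 of the Clock windows holds it on the opposite strand, 119 bases before. None of the 4 motifs was found in the windows of Npas2, Nr1d1 and Dbp. The kept transcripts of Cry1, Nr1d1, Nr1d2 and Dbp begin at the start sites of their windows, and those of Arntl, Clock, Npas2, Per1 and Per3 begin elsewhere. The distance exceeds a kilobase for the Arntl and Per1 windows and for the Clock window that holds AGGTCA.

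The values are normalised read counts, that is, reads divided by 1 size factor per library. They rest on 21686140 to 30951138 reads per library, counted once per gene. The epithelial markers were abundant in all libraries: all 10 were above 0 in each, and their summed level ran from 349970 in KO 1 to 409007 in WT 2. Leukocyte markers summed to 2904 in WT 1, 2482 in WT 2, 2264 in KO 1 and 839.6 in KO 2, with 4 of 10 at 0 in at least 1 library, Lyz2 and Cd4 among them. The targeted gene was not lower under its label. Ythdf1 stood at 1088 in WT 1, 775.4 in WT 2, 1752 in KO 1 and 1737 in KO 2, a log2 difference of 0.92 ± 0.28 (SE) with an adjusted p = 0.759 in limma-trend, so directions are given by label, with the genotype unchecked. In the authors' deposited table Ythdf1 had q = 0.0145.

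Between the labels, the count of clock genes called was near that over all genes. In limma-trend, 0 of the 10 members passed a Benjamini-Hochberg adjusted p of 0.05, where 0% of the 23116 genes tested passed, and the smallest adjusted p among them was 0.779. At an unadjusted p under 0.05 the count was again 0 of 10, where 5.44% of all genes passed, so neither count is a result about the members. The other tools that did make calls made none among the members: DESeq2 on recovered reads (6.22% of all genes called), limma without a trend (2.73%) and the authors' deposited table (q under 0.05 for 4.47% of genes by their most abundant transcript). edgeR on recovered reads called 0 of 10 and 0% of all genes, with 1060 genes at an unadjusted p under 0.05. The median log2 difference of the 10 members, labelled Ythdf1 KO minus WT, was 0.04, beside -0.09 over all genes tested. Both KO libraries lay above both WT libraries for 1 member, Cry1, where 14.3% of all genes did so, and below for 0, where 21.4% did.

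**Figure D1:**
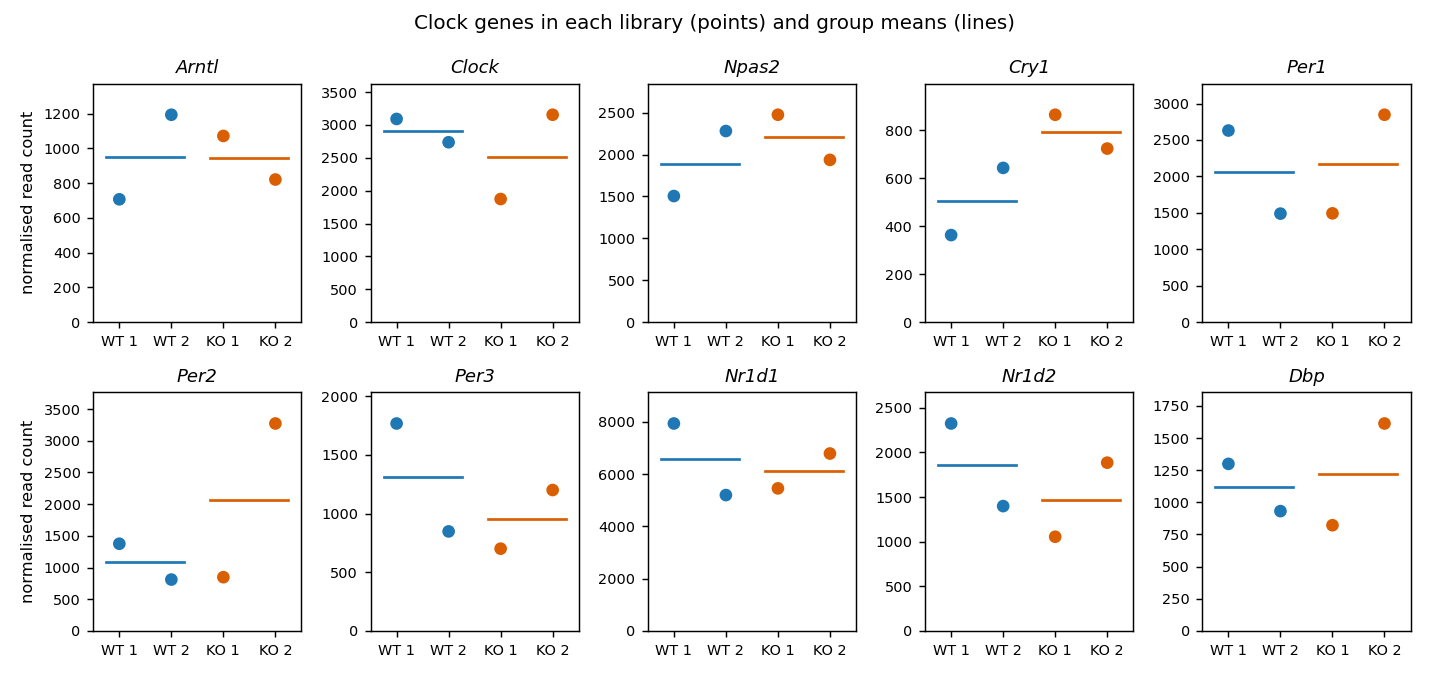
Normalised read count (vertical axes, starting at 0) of each clock gene in the 4 libraries, with WT in blue and the libraries labelled Ythdf1 KO in orange; each point is 1 library and each line the mean of a label. WT 1 and KO 2 are high in the Per genes, Nr1d1, Nr1d2, Dbp and Clock and low in Arntl and Npas2, and the labels overlap; only in Cry1 do both KO points, at 864.8 and 723.8, lie above both WT points.

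The clock genes also showed a difference between the libraries of one label, repeated in the other label. Arntl, which encodes the shared partner of the activating pair, stood at 706.7 in WT 1, 1193 in WT 2, 1071 in KO 1 and 821 in KO 2. It was low in WT 1 and KO 2 and high in WT 2 and KO 1, and the labels overlapped. Its WT mean was 950.0 ± 344 and its KO mean 945.9 ± 177 (SD, n = 2 each), a ratio of 0.996. The log2 difference was 0.03 ± 0.37 (SE), with limma-trend adjusted p = 1. Of its 15 listed transcripts, which share most reads, 9 had this order of libraries and 0 the opposite.

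Npas2, a partner of Arntl that can stand in for Clock, followed Arntl. It stood at 1505 in WT 1, 2281 in WT 2, 2475 in KO 1 and 1936 in KO 2, again with the lowest values in WT 1 and KO 2. Its means were 1893 ± 549 and 2206 ± 381 (SD, n = 2 each), and its log2 difference of 0.24 ± 0.28 (SE) did not pass in limma-trend (adjusted p = 0.872). Clock, the other partner, did not follow Arntl: it stood at 3092 in WT 1, 2737 in WT 2, 1873 in KO 1 and 3156 in KO 2. KO 1 alone was clearly low, and WT 1 exceeded WT 2 by a ratio of 1.13 (95% interval 1.07 to 1.19). Such intervals were computed from the recovered reads with the exact Clopper-Pearson method and cover counting error only. The log2 difference of Clock was -0.26 ± 0.29 (SE, adjusted p = 0.864 in limma-trend), and it was 0.12 without KO 1.

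The Per genes, which encode the repressors that close the loop, were all high in WT 1 and KO 2. Per1 stood at 2629.6 in WT 1, 1489 in WT 2, 1493 in KO 1 and 2846 in KO 2. The values of WT 2 and KO 1 nearly coincided, and so did those of WT 1 and KO 2, so that the means of the labels, 2059 ± 806 and 2169.7 ± 957 (SD, n = 2 each), had a ratio of 1.05. Its log2 difference was 0.06 ± 0.41 (SE, adjusted p = 1 in limma-trend). Per2 stood at 1375 in WT 1, 809.7 in WT 2, 847.3 in KO 1 and 3273 in KO 2. KO 2 stood apart, with 3.86 times the value of KO 1 (95% interval 3.59 to 4.16), the widest gap between libraries of one label among the members. The Per2 means were 1092 ± 400 and 2060.2 ± 1715 (SD, n = 2 each), a ratio of 1.89 that rests on KO 2: the log2 difference of 0.66 ± 0.64 (SE, adjusted p = 0.842 in limma-trend) was -0.32 without it. Per3 stood at 1768 in WT 1, 848.1 in WT 2, 700.9 in KO 1 and 1201 in KO 2. Here WT 1 was the highest, at 2.09 times WT 2 (95% interval 1.92 to 2.27), and the log2 difference was -0.42 ± 0.45 (SE, adjusted p = 0.861 in limma-trend).

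Cry1, the other repressor gene of the set, was the exception to that order. It stood at 362.9 in WT 1, 643.1 in WT 2, 864.8 in KO 1 and 723.8 in KO 2. As in Arntl and Npas2, WT 1 was below WT 2 and KO 2 below KO 1, but both KO libraries lay above both WT libraries. The means were 503.0 ± 198 and 794.3 ± 99.7 (SD, n = 2 each), a ratio of 1.58. With a log2 difference of 0.71 ± 0.41 (SE) and a limma-trend adjusted p = 0.779, this was the smallest p among the members, and it did not pass. The authors' deposited table gave Cry1 a log2 fold change of 0.66 with q = 0.402. The direction of Cry1 held in all 14 alternatives, with values from 0.30 to 1.12, and no alternative called it.

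Nr1d1 and Nr1d2, the REV-ERB repressors of Arntl, were high where Arntl was low. Nr1d1 stood at 7941 in WT 1, 5199.5 in WT 2, 5456 in KO 1 and 6791 in KO 2. Nr1d2 stood at 2324 in WT 1, 1398 in WT 2, 1055 in KO 1 and 1885 in KO 2. In both genes WT 1 was the highest library and KO 2 the next, and the labels overlapped. The log2 differences were -0.08 ± 0.24 (SE, adjusted p = 0.991) for Nr1d1 and -0.35 ± 0.39 (SE, adjusted p = 0.861) for Nr1d2, both in limma-trend. Dbp, the output activator of D-box genes, stood at 1299.6 in WT 1, 931.9 in WT 2, 822.1 in KO 1 and 1614 in KO 2. It shared the high values of WT 1 and KO 2, at 1.39 times WT 2 (95% interval 1.28 to 1.52) and 1.96 times KO 1 (95% interval 1.81 to 2.13), and its log2 difference was 0.07 ± 0.40 (SE, adjusted p = 1 in limma-trend).

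Counted over the members, WT 1 and KO 2 both lay above WT 2 and KO 1 for 7 of 10 genes, where 16% of all genes tested had this order. They both lay below for 2 of 10, Arntl and Npas2, where again 16% of all genes did. Among genes whose mean reaches 500, as it does for all 10 members, the shares were 15.4% above and 16.2% below. The remaining member is Cry1. The count of 9 was also found with quantile normalisation, with TMM scaling of recovered reads and with transcripts summed per gene. This order of libraries was noticed in the values themselves and follows no label, so it is given as a description with no test.

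The gap between libraries of one label was wide in the clock genes. The ratio of WT 1 to WT 2 ran from 0.564 in Cry1 to 2.09 in Per3, and that of KO 2 to KO 1 from 0.766 in Arntl to 3.86 in Per2. By size, the median gap on the log2 scale was 0.74 within WT and 0.76 within the other label, beside 0.28 and 0.32 for the 7431 genes whose mean reaches 500. The sign of the WT 1 to WT 2 difference matched that of KO 2 to KO 1 for 10 of 10 members, 7 positive and 3 negative. It matched for 49.5% of those 7431 genes. Setting WT 1 beside KO 2 was chosen after seeing these same values, and members of a common loop are not independent, so the count is a description with no test. Across the 7431 genes Pearson's correlation between both log2 ratios was -0.02, a description over genes, which are not independent replicates.

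**Figure D2:**
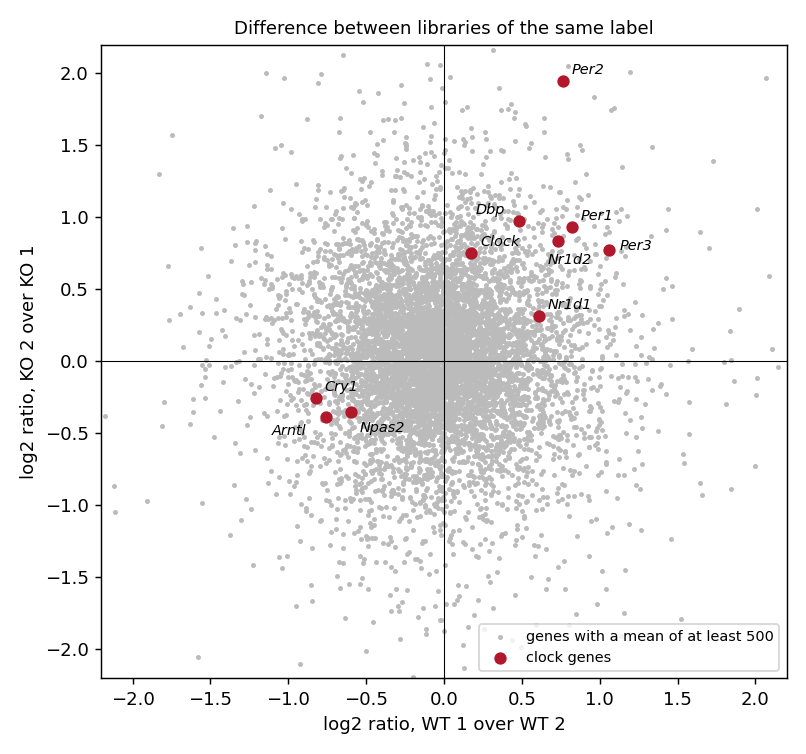
Log2 ratio of WT 1 over WT 2 (horizontal axis) against log2 ratio of KO 2 over KO 1 (vertical axis) for the clock genes (red, named) and for 7431 genes with a mean of at least 500 (grey; 33 of these lie outside the axes). The grey cloud is centred near 0 with a correlation of -0.02, while the 10 clock genes lie in 2 opposite corners, 7 at upper right and Arntl, Npas2 and Cry1 at lower left.

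For 6 of the 10 members, the gene with the most similar profile was another member, where 36 of the 45 candidates were not members. Genes outside the members and the wider clock list were not compared. Genes that were each other's nearest both entered the count, so it is a description only. Likeness was measured as the root mean square difference of log2 values over the 4 libraries, each gene centred on its own mean, against the other 45 genes among the members and the wider clock list. Per1 and Dbp were each other's nearest, at 0.121, and so were Per3 and Nr1d2, at 0.122. Arntl was nearest to Npas2, at 0.119. Cry1 was also nearest to Npas2, at 0.250. The gene nearest to Npas2 itself was in the wider list and is not reported here. Other members were nearest to genes of the wider list: Nr1d1 to Fbxw11, a ubiquitin ligase subunit, at 0.0390, the smallest of the distances given here, Clock to Noct, at 0.146, and Per2 to Tef, at 0.283. With 4 libraries such distances describe these samples only.

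The wider list holds 36 further genes of the pathway, from modulators and kinases to outputs, and all 36 passed the filter. Of these, 0 passed an adjusted p of 0.05 in limma-trend, where 0% of all genes passed, and 0 had an unadjusted p under 0.05, where 5.44% did. Its median log2 difference was 0.04, beside -0.09 over all genes, with both KO libraries above both WT libraries for 3 genes and below for 2, where 14.3% and 21.4% of all genes did so. WT 1 and KO 2 both lay above WT 2 and KO 1 for 13 of 36 genes and below for 7 of 36, against 16% of all genes on each side.

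Among the outputs and D-box factors, Tef, a relative of Dbp, stood at 1288 in WT 1, 874.3 in WT 2, 721.3 in KO 1 and 2069.6 in KO 2, the order seen in Dbp. Nampt, an enzyme of NAD salvage and a known output of the clock, stood at 1244, 763.3, 929.7 and 1729.6 in the same order of libraries. Wee1, a cell cycle kinase under E-box control, stood at 684.2, 535.1, 550.7 and 1230.0. All 3 were high in WT 1 and KO 2, most so in KO 2, and their log2 differences of 0.20 ± 0.52, 0.38 ± 0.41 and 0.44 ± 0.46 (SE) did not pass in limma-trend. Usp2, a rhythmic deubiquitinase, stood at 1229.7, 788.5, 369.4 and 1193. Ciart, a repressor of the activating pair, had the same order at low values, with 160.1, 41.4, 128.9 and 226.6. Hlf, the other relative of Dbp in the list, did not share that order. Its values were 187.1 in WT 1, 232.2 in WT 2, 74.7 in KO 1 and 63.7 in KO 2, a ratio of 0.330 that did not pass (log2 difference -1.58 ± 0.78 (SE), limma-trend adjusted p = 0.759).

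The modulators gave no common pattern. Cry2, the paralogue of Cry1, stood at 1328 in WT 1, 908.7 in WT 2, 1075 in KO 1 and 1052 in KO 2, with a ratio of 0.951 between labels. Rora, an ROR activator that opposes the REV-ERB proteins, had low values of 89.0, 77.7, 275.3 and 23.2, and its direction turned with the scaling (log2 difference -0.04, and 0.45 with quantile normalisation). Nfil3, a repressor of D-box genes and a target of REV-ERB, stood at 357.3, 327.1, 739.7 and 234.1. It was high in KO 1 alone and lowest in KO 2. Bhlhe40, a repressor that competes for E-boxes, stood at 4341, 4191 and 4318 in WT 1, WT 2 and KO 1, and at 8774 in KO 2. Bhlhe41, its paralogue, was low throughout, with 163.4, 35.3, 120.2 and 5.79.

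Csnk1d, a kinase that phosphorylates PER proteins, stood at 3712, 4125, 3751 and 4133, a log2 difference of 0.01 ± 0.17 (SE). Csnk1e, its paralogue, stood at 649.2, 631.0, 218.1 and 859.4, with KO 1 alone low and a log2 difference of -0.56 ± 0.67 (SE). Neither passed in limma-trend, and the difference between both genes was not tested.

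**Figure D3:**
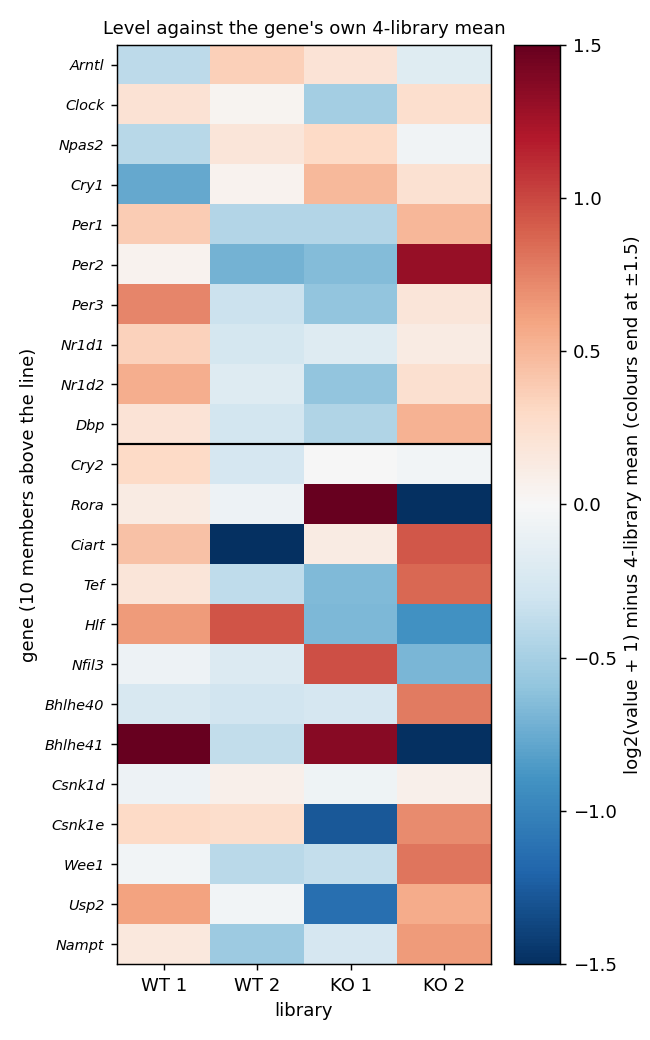
Level of the 10 clock genes (above the line) and of 13 genes of the wider list (below) in each library, as log2(value + 1) minus the gene's own mean over the 4 libraries; red is above that mean, blue below, and colours end at 1.5 in either direction (4 cells exceed it). The WT 1 and KO 2 columns are red for the Per genes, Nr1d1, Nr1d2 and Dbp and blue for Arntl and Npas2, and WT 2 and KO 1 show the reverse. Some of these cells are very pale, such as Per2 in WT 1 (0.053) and Npas2 in KO 2 (-0.057).

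Some other sums were also lowest in WT 1 and KO 2, but not evenly so. Summed markers of stroma and muscle stood at 1496 in WT 1, 3560 in WT 2, 1561 in KO 1 and 1406 in KO 2. Those of endothelium and nerve stood at 1256, 1339.8, 1379 and 733.7 (9 of 10 and 7 of 9 listed markers above 0 in all libraries). In the first sum WT 2 alone stood apart, and in the second KO 2 alone did. Single markers were mixed. Col1a1, Col3a1, Dcn, Acta2, Pecam1 and Tubb3 had that order, where 16% of all genes tested did. The other markers of both sums that passed the filter did not. Among them, Vwf and Ret were highest in WT 1 and Vim in KO 2. The part of these cell types in the levels of the clock genes was not tested. In bulk RNA fewer cells of a type and less RNA per cell cannot be told apart. Immediate early genes, whose inducing stimuli also raise Per1 in many tissues, summed to 127282 in WT 1, 100057 in WT 2, 140652 in KO 1 and 128269.7 in KO 2. That sum was highest in KO 1. Within the list, Nr4a1 (2811, 1437, 2003 and 3357) and Ier2 (6675, 5742, 6116 and 6973) were high in WT 1 and KO 2, and the other genes did not have that order. By read depth, WT 1 was the shallowest library and KO 2 the deepest. The part of stimuli or depth in the levels of the clock genes was not tested.

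**Figure D4:**
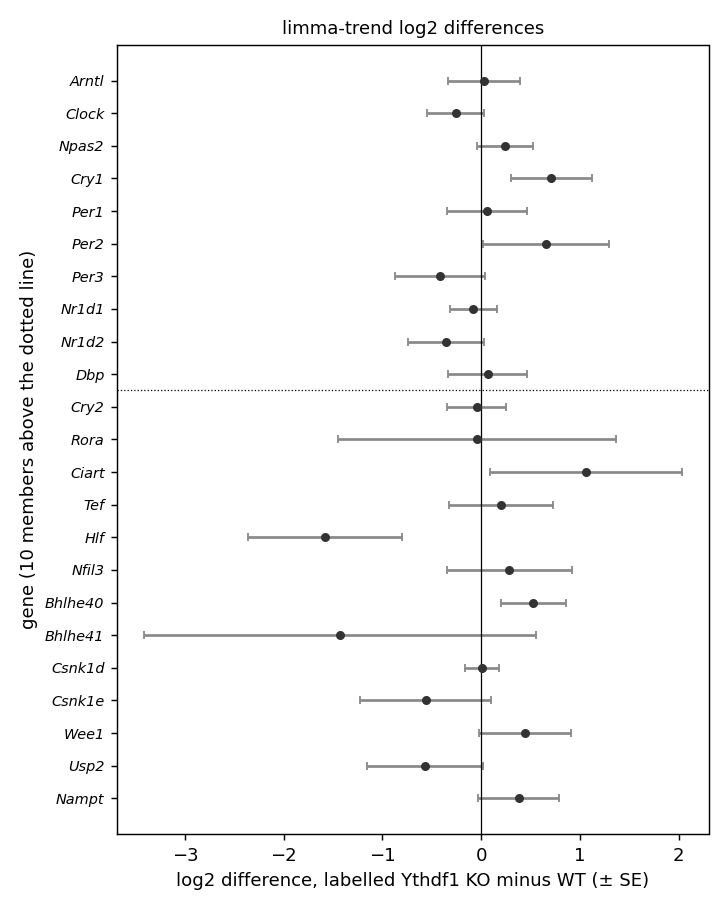
Log2 difference, labelled Ythdf1 KO minus WT, from limma-trend (horizontal axis) for the 10 clock genes (above the dotted line) and 13 genes of the wider list (below); points are estimates and bars 1 SE. The estimates for the clock genes run from -0.42 in Per3 to 0.71 in Cry1 and lie on both sides of 0, and none of the genes shown passed the threshold.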

How the data were processed

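RNA-seq of 4 input libraries of mouse colon epithelial cells was used, 2 labelled WT and 2 labelled Ythdf1 KO. The submitters' processing notes name build mm10 and, without roles, deepTools 3.3.0, HOMER 4.10, MACS2 2.1.0, SAMtools 1.3.1, Bowtie2 2.2.5 and CASAVA 1.8. The sources used here do not name the read counter or say if it used strand, so reads of overlapping or antisense genes may not be told apart. The deposited expression signal of 87526 transcripts is a normalised read count: divided by the smallest non-zero value of its library, 100% came out whole within 0.001, which gave back the reads. No transcript with a mean under 11.6 is listed. Each transcript also has, per the file headers, the authors' own q-value, p-value and log2 fold change.

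For each gene the transcript with the highest mean was kept, ties by identifier, since isoforms count shared reads again. The filter asked for a value of 1 or more in 2 or more libraries, and 23116 genes passed. log2(value + 1) was modelled on label alone in limma-trend (limma 3.58.1, R 4.3.3, robust), and p-values were adjusted by Benjamini-Hochberg over all genes. Differences on that scale understate changes of low genes. The values are normalised, so count tests (edgeR 4.0.16, DESeq2 1.42.0 on recovered reads) are alternatives only. The fit was tested on simulated data. Members and lists were chosen with earlier results of these data known. Named were all members, 13 list genes fixed by name (2 more are not reported here), and any list gene with an unadjusted p or deposited q under 0.05, of which there was none.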

Additional observations from a re-analysis of the deposited data

How the results depend on the processing

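None of the 14 alternatives called any of the 10 clock genes or of the 36 genes of the wider list, and the wider list kept a median log2 difference between -0.04 and 0.09. The precision is limited by 2 libraries a label and, for low genes, also by counting error: Hlf rests on 77 reads in each KO library and Bhlhe41 on 7 reads in KO 2. Over all genes, limma without a trend called 632 and DESeq2 on recovered reads 1438, where limma-trend called 0; leaving out 1 library gave 0 to 36 (36 without KO 1). The median over the clock genes was 0.04, and from -0.36 (without KO 2) to 0.17 (without WT 1) when 1 library was left out. Leaving out 1 library turned the direction of most members, whose log2 differences then ran from -0.35 to 0.41 for Arntl, -0.63 to 0.12 for Clock, -0.059 to 0.54 for Npas2, -0.41 to 0.52 for Per1, -0.32 to 1.63 for Per2, -0.95 to 0.11 for Per3, -0.38 to 0.23 for Nr1d1, -0.77 to 0.064 for Nr1d2 and -0.42 to 0.55 for Dbp. For Cry1 they ran from 0.30 to 1.12, with no change of direction. In the wider list they ran from -0.32 to 0.23 for Cry2, -1.80 to 1.71 for Rora, -0.56 to 0.96 for Tef, -0.54 to 1.11 for Nfil3, -3.51 to 0.65 for Bhlhe41, -0.067 to 0.085 for Csnk1d, -1.55 to 0.42 for Csnk1e, -0.14 to 1.02 for Wee1, -1.41 to 0.28 for Usp2 and -0.068 to 0.83 for Nampt. Each such fit has a lone library in 1 group, which is assumed to vary like the others. Quantile normalisation turned Arntl (-0.0075), Per1 (-0.0071), Csnk1d (-0.072) and Rora (0.45). Summing transcripts turned Per1 (-0.012), Dbp (-0.021), Cry2 (0.18) and Csnk1d (-0.056). Rora also turned with a pseudocount of 10 (0.061), in edgeR (0.86) and in DESeq2 (0.86). For these genes the cause was not tested; all lay close to 0 in the limma-trend fit. With the replicate number as a block, 0 genes and 0 clock genes were called and the clock median was 0.04. Libraries of the same number shared little, with a correlation of 0.02 between their deviations over 7431 genes. With 2 libraries a label, this is the -0.02 given above with its sign reversed, not a separate check. The numbers were not taken to pair the samples. The scalings set beside the order of libraries (quantile, TMM, summed transcripts; 9 of 10 members in each) were chosen after seeing the data.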
